A study of Mus musculus with 21 samples.

Results

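Granulosa identity and response to follicle-stimulating hormone (FSH) were followed with 9 genes, Foxl2, Fshr, Cyp19a1, Inha, Inhba, Inhbb, Amh, Nr5a2 and Hsd17b1, out of 55335 gene identifiers. They were chosen by name, with earlier results of these data known, and each was present in all 21 libraries. The study sequenced RNA of 12 oocyte and 9 granulosa cell libraries from female ICR mice to ask what transplanted human umbilical cord mesenchymal stem cells (UC-MSCs) change in the ovary. Young mice were 6 to 8 weeks old and Aged mice 18 months old, both without transplanted cells. The 3 other groups were 18-month-old mice 3 weeks after UC-MSCs were placed under the ovarian capsule, either unsorted (Aged + Unsorted) or sorted for a high (Aged + LRP1high) or low (Aged + LRP1low) level of the surface protein LRP1. Whether Young and Aged mice had a sham injection was not given in the sources used here, so surgery and cells cannot be told apart.

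Granulosa cells were released from cumulus-oocyte complexes by hyaluronidase, and oocytes were collected after digestion of the zona pellucida. The granulosa cell libraries were 1 of Young, 2 of Aged, 1 of Aged + Unsorted, 3 of Aged + LRP1high and 2 of Aged + LRP1low mice. The oocyte libraries were 3 of Young, 2 of Aged, 2 of Aged + Unsorted, 3 of Aged + LRP1high and 2 of Aged + LRP1low mice. The labels call the replicates biological, but how many mice or cells each library holds was not given, so p-values measure the spread between libraries.

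Granulosa cells surround the oocyte and make its hormonal surroundings. FSH binds the receptor encoded by Fshr and, through cyclic AMP, raises aromatase (Cyp19a1) and the inhibin and activin subunits. Foxl2 and Nr5a2 are transcription factors that keep granulosa identity and prepare the follicle for ovulation, Hsd17b1 makes estradiol from estrone next to aromatase, and Amh encodes anti-Müllerian hormone, which restrains the recruitment of follicles.

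The 9 genes lie on 6 autosomes, and their identifiers and coordinates match the GRCm38 annotation. Foxl2 (ENSMUSG00000050397.4) lies on chromosome 9 from 98955288 to 98958543 and overlaps the antisense gene Foxl2os. Inhba (ENSMUSG00000041324.14, chromosome 13, 16011851 to 16031621) overlaps the antisense genes Gm48444 and B230303A05Rik. Since the use of strand in counting was not stated, reads of Foxl2 and Inhba cannot be told apart from those of their antisense partners. Fshr (ENSMUSG00000032937.5) spans chromosome 17 from 88984952 to 89200675, Inha (ENSMUSG00000032968.4) chromosome 1 from 75507077 to 75510366, and Inhbb (ENSMUSG00000037035.5) chromosome 1 from 119415465 to 119422248. Cyp19a1 (ENSMUSG00000032274.9), Nr5a2 (ENSMUSG00000026398.14), Hsd17b1 (ENSMUSG00000019301.5) and Amh (ENSMUSG00000035262.5) complete the set.

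Promoter windows of 250 bases before a RefSeq start site (GRCm38) were found for 7 of the 9 genes, and for 4 of them the start site is the gene start in the files. The windows of the FSH receptor and of both activin beta subunits are shown, because these genes were high together in the libraries with the highest levels of the set. Each is written 5′ to 3′ on the strand of the gene, with 1 match of a searched motif in capitals. The windows lie at chr17:89200676-89200925 (Fshr, minus strand), chr13:16011601-16011850 (Inhba, plus strand) and chr1:119422249-119422498 (Inhbb, minus strand).
Fshr: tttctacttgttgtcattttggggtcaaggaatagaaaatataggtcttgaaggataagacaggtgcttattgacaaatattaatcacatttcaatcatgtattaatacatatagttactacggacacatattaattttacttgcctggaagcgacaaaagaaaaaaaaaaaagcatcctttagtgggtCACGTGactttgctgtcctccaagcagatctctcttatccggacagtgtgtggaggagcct
Inhba: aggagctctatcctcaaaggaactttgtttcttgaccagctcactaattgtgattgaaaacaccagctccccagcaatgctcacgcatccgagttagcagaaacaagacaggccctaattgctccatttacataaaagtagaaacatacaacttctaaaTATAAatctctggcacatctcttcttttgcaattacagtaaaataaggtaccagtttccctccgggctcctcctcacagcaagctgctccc
Inhbb: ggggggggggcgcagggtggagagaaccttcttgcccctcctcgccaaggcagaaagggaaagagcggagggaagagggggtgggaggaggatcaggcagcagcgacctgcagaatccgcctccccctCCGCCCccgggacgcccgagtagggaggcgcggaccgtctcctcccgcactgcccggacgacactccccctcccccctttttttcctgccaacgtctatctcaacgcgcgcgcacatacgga
The capitals mark CACGTG (the E-box) in Fshr, TATAA in Inhba and the reverse complement of GGGCGG (the GC box) in Inhbb. These motifs and the nuclear receptor half-site AGGTCA were searched on both strands, and none of the matches shown overlaps another. Of 32544 windows of this length, 6.03% hold the E-box, 22.7% hold TATAA, 33.0% hold the GC box and 14.0% hold the half-site. The share of G and C was 36.8% in the Fshr, 43.2% in the Inhba and 68.0% in the Inhbb window. The matches describe the sequence and were not tested as binding sites.

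Levels are given as FPKM, fragments scaled to the length of the gene and the total of the library, which allows genes to be compared. The granulosa cell libraries hold 0.335 to 1.49 gigabases of aligned sequence and the oocyte libraries 0.278 to 3.40. In a gene 1 kilobase long, a single 150-base read amounted to an FPKM of 0.0441 to 0.540. A family of 10 repeat-like genes around Gm10800 held 93.4% and 95.4% of the TPM of the 2 Aged granulosa cell libraries. In granulosa cells it also held 82.5%, 96.4% and 68.5% of Aged + LRP1high replicates 1 to 3. It held 66.8% and 97.0% of Aged + LRP1low replicates 1 and 2, 25.9% of Aged + Unsorted and 7.84% of Young. Among oocyte libraries this share was 88.3% in Young replicate 1, 48.6% and 19.6% in Aged, and 42.4% and 63.6% in Aged + LRP1low. It was at most 1.73% in Aged + LRP1high, 3.17% in Aged + Unsorted and 1.13% in the other Young oocyte libraries. The share thus also differed between oocyte groups that were compared. Genes used by every cell were also near 0 in the Aged granulosa cell libraries: Actb had an FPKM of 0.461 and 1.74 there and 4048 in the Young library, and Eef1a1 was listed at 0 in Aged replicate 1. A low level in Aged granulosa cells therefore stands beside a low level of such genes. Markers of other cells, named below, were low there too. Their summed FPKM was 0.441 and 1.47 for 5 luteal genes and 2.02 and 2.68 for 5 stromal genes. What made these levels low was not tested. By 7 oocyte genes (Zp1, Zp2, Zp3, Gdf9, Bmp15, Ooep and Nlrp5), 5 libraries went against their label: their median was 557 in Aged + Unsorted granulosa cells, and 0.803, 9.04, 4.76 and 8.32 in oocyte libraries Young 1, Aged 1, Aged + LRP1low 1 and Aged + LRP1low 2. It was at most 4.60 in the other granulosa cell libraries and at least 65.2 in the other oocyte libraries.

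The gene set was high, as the granulosa label calls for, in the Young library and in Aged + LRP1high replicate 3, and the set was at or near 0 in both Aged libraries. The summed FPKM of the 9 genes was 1977 in Young, 0.991 and 1.08 in the Aged libraries, 21.6 in Aged + Unsorted, 54.0, 4.80 and 570 in Aged + LRP1high, and 88.0 and 5.95 in Aged + LRP1low. Of the sum over the 9 granulosa cell libraries, 72.6% came from the Young library and 20.9% from Aged + LRP1high replicate 3. The Young library was highest for 7 of 9 genes, and Aged + LRP1high replicate 3 was the next for 7 of 9. In Aged libraries no member reached an FPKM of 1, and 5 and 4 of 9 were listed at 0, against 56.3% and 50.2% of all gene identifiers in these libraries.

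**Figure D1:**
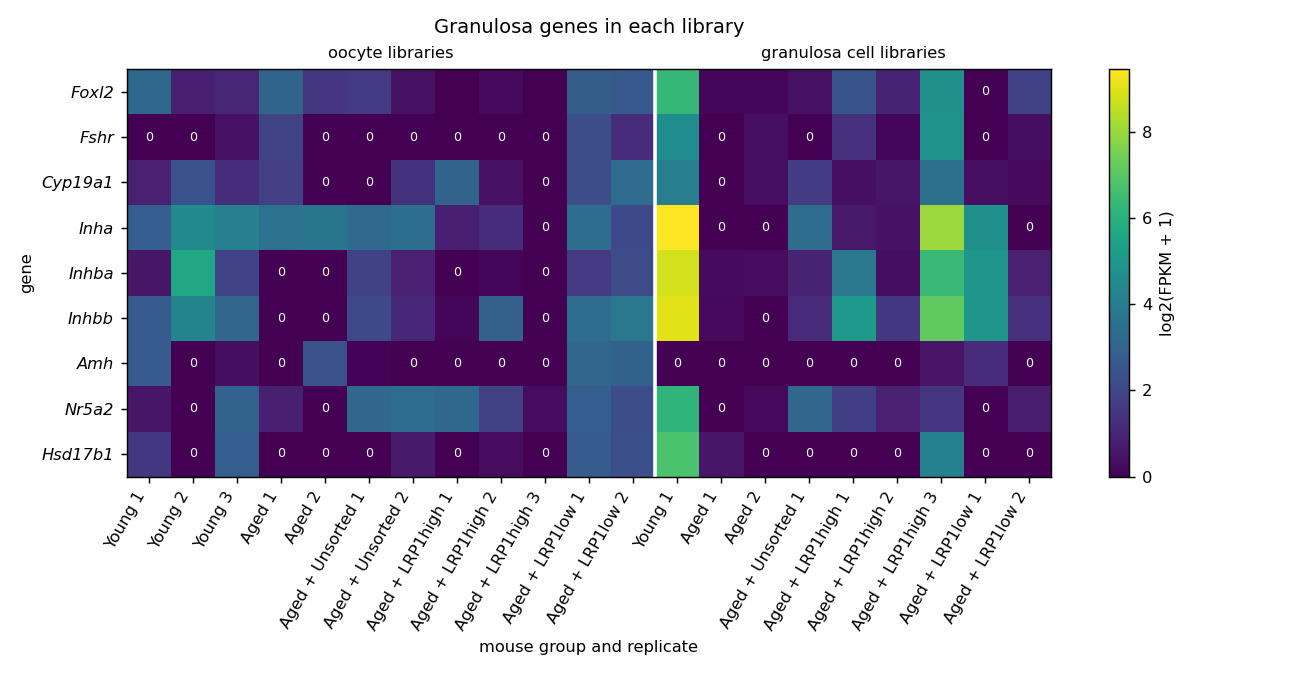
Colour gives log2(FPKM + 1) of the 9 genes (rows) in the 12 oocyte and 9 granulosa cell libraries (columns), and 0 marks a gene listed at 0. Among granulosa cell libraries the bright columns are Young 1 and Aged + LRP1high 3, whose summed FPKM were 1977 and 570.

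Foxl2, which keeps granulosa cells from taking on testicular fate, had a granulosa FPKM of 77.5 in Young, 0.0964 and 0.0837 in the Aged libraries, 0.351 in Aged + Unsorted, 4.43, 0.912 and 25.8 in Aged + LRP1high, and 0 and 2.52 in Aged + LRP1low. The 3 Aged + LRP1high libraries thus all lay above both Aged libraries, while Aged + LRP1low lay on either side of them.

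Fshr, the receptor for FSH, had a granulosa FPKM of 23.2 in Young, 0 and 0.297 in the Aged libraries, 0 in Aged + Unsorted, 1.48, 0.0827 and 27.2 in Aged + LRP1high, and 0 and 0.266 in Aged + LRP1low. Among the 8 members with a level in Young, it was the one for which Aged + LRP1high replicate 3 exceeded Young, at 117% of the Young level, while replicate 2 of the same group lay within the range of Aged. The ratio of Fshr to Foxl2 was 0.300 in Young, 1.05 in Aged + LRP1high replicate 3 and 0.334 in replicate 1, and replicate 3 thus held the most Fshr relative to Foxl2 of these libraries.

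Nr5a2, a nuclear receptor needed for ovulation, had a granulosa FPKM of 72.3 in Young, 0 and 0.139 in the Aged libraries, 7.76 in Aged + Unsorted, 2.38, 0.814 and 1.80 in Aged + LRP1high, and 0 and 0.680 in Aged + LRP1low. All 3 Aged + LRP1high libraries lay above both Aged and both Aged + LRP1low libraries. In Aged + LRP1high replicate 3 it stood at 2.48% of the Young level, the lowest such share among the 8 members with a level in Young. The Aged + Unsorted value is that of the library rich in oocyte genes, and the 2 Aged + Unsorted oocyte libraries had 7.74 and 9.13.

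Cyp19a1, the aromatase that makes estrogens, had a granulosa FPKM of 15.5 in Young, 0 and 0.314 in the Aged libraries, 2.16 in Aged + Unsorted, 0.294, 0.468 and 10.2 in Aged + LRP1high, and 0.302 and 0.168 in Aged + LRP1low. Hsd17b1 had 108 in Young, 0.497 and 0 in Aged, 17.0 in Aged + LRP1high replicate 3, and was listed at 0 in Aged + Unsorted, in Aged + LRP1high replicates 1 and 2 and in both Aged + LRP1low libraries. Both estradiol enzymes thus reached an FPKM of 10 in Young and in Aged + LRP1high replicate 3, and neither did in the other 7 granulosa cell libraries. Hsd17b1 stood at 6.93 times Cyp19a1 in Young and at 1.66 times in Aged + LRP1high replicate 3. By deposited coverage, the reads over an average base, Cyp19a1 had 0.361 and 0.390 in these libraries and Hsd17b1 74.7 and 19.3. The ratio thus depends on the measure, and the reason was not tested. Cyp19a1 coverage was at most 0.390 in granulosa cell and 0.758 in oocyte libraries. Every FPKM of Cyp19a1 here and below thus stands on a coverage under 1.

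The inhibin and activin subunits were the most abundant members in Young and in Aged + LRP1high replicate 3. Inha, the alpha subunit of inhibins, had a granulosa FPKM of 703 in Young, 0 and 0 in the Aged libraries, 9.29 in Aged + Unsorted, 0.555, 0.390 and 263 in Aged + LRP1high, and 26.0 and 0 in Aged + LRP1low. Inhba, the activin beta A subunit, had 450 in Young, 0.224 and 0.251 in the Aged libraries, 0.850 in Aged + Unsorted, 12.3, 0.262 and 83.9 in Aged + LRP1high, and 29.4 and 0.841 in Aged + LRP1low. Inhbb, the beta B subunit, had 528 in Young, 0.174 and 0 in the Aged libraries, 1.22 in Aged + Unsorted, 32.5, 1.87 and 141 in Aged + LRP1high, and 31.0 and 1.47 in Aged + LRP1low. Both beta subunits were higher in every Aged + LRP1high and Aged + LRP1low library than in either Aged library. So were 50.4% of 13002 genes for Aged + LRP1high and 30.5% for Aged + LRP1low. The closest values were those of Inhba, 0.262 in Aged + LRP1high replicate 2 against 0.251 in Aged. A single 150-base read on 1 kilobase amounted to 0.117 in that Aged + LRP1high library. The ranges of the transplanted groups overlapped each other.

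The balance of the subunits differed between libraries. The 3 subunits together made up 85.0% of the members' FPKM in Young, 85.5% in Aged + LRP1high replicate 3, 84.1% in replicate 1 and 98.2% in Aged + LRP1low replicate 1, but 40.2% and 23.1% in the Aged libraries, 52.5% in Aged + Unsorted, 52.6% in Aged + LRP1high replicate 2 and 38.9% in Aged + LRP1low replicate 2. Inha was 0.719 times the sum of Inhba and Inhbb in Young, 1.17 times in Aged + LRP1high replicate 3, 0.431 times in Aged + LRP1low replicate 1, and 0.0124 times in Aged + LRP1high replicate 1. Aged + LRP1high replicate 1 thus held beta subunits with almost no alpha subunit. Inhbb was 1.17 times Inhba in Young, 1.68 times in Aged + LRP1high replicate 3, 2.65 times in replicate 1 and 1.06 times in Aged + LRP1low replicate 1.

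Amh, which marks small growing follicles, was listed at 0 in 7 of 9 granulosa cell libraries, Young included, with 0.402 in Aged + LRP1high replicate 3 and 1.28 in Aged + LRP1low replicate 1. In a gene 1 kilobase long, a single 150-base read amounted to 0.216 in the Young library, 0.132 in Aged + LRP1high replicate 3 and 0.448 in Aged + LRP1low replicate 1. Amh stayed under the mean of 1 FPKM that a gene needed for a test in granulosa cells.

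**Figure D2:**
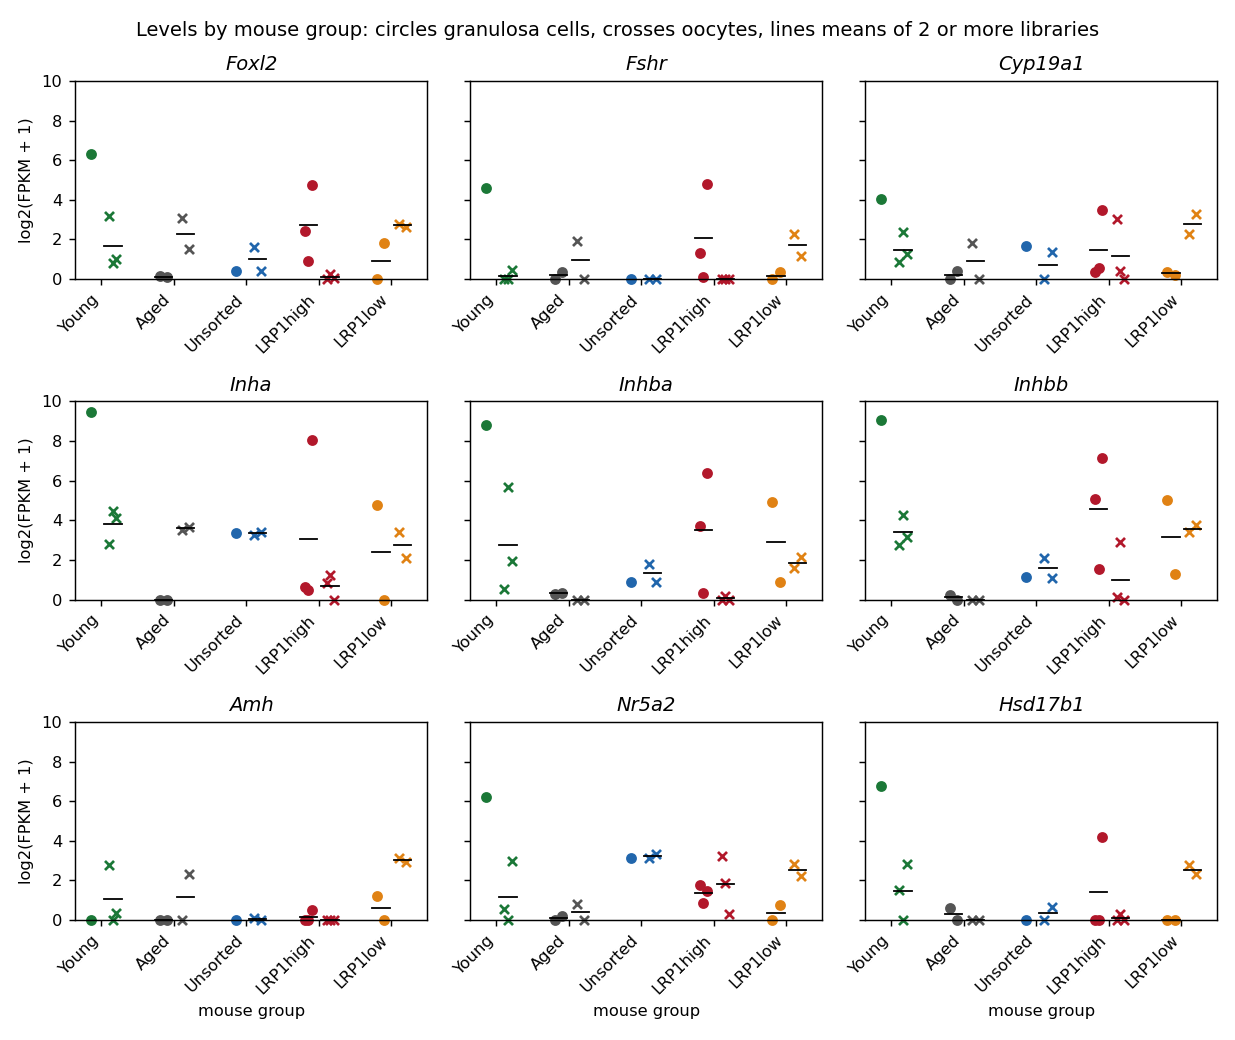
Each panel shows log2(FPKM + 1) of a gene by mouse group, with circles for granulosa cell libraries, crosses for oocyte libraries and lines for means of 2 or more libraries. The Young granulosa circle lies above all Young oocyte crosses for 8 of 9 genes, and 1 circle of Aged + LRP1high lies far above the other 2 for Inha (263 against 0.555 and 0.390).

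Markers of other cells also differed between the granulosa cell libraries. The summed FPKM of 5 luteal genes (Star, Cyp11a1, Hsd3b1, Akr1c18 and Ptgfr) was 988 in Young, 0.441 and 1.47 in the Aged libraries, 21.3 in Aged + Unsorted, 1784, 7.04 and 85.8 in Aged + LRP1high, and 5582 and 72.5 in Aged + LRP1low. Akr1c18, which breaks down progesterone in the regressing corpus luteum, had 386 in Aged + LRP1high replicate 1 and 890 in Aged + LRP1low replicate 1, against 1.23 in Young and 2.77 in Aged + LRP1high replicate 3. The 2 libraries with high beta subunits and low Fshr and Cyp19a1 were therefore those with the highest luteal sums. The sum of 5 stromal genes (Col1a1, Col1a2, Col3a1, Dcn and Pdgfra) ranged from 2.02 in an Aged to 141 in the Young granulosa cell library, and was 124 and 72.4 in Aged + LRP1high replicates 1 and 3. Sums of 3 theca, 5 immune, 3 red blood cell and 4 endothelial genes were at most 52.7, 20.3, 49.7 and 31.9. Of the 5 luteal genes, 3 were listed at 0 in Aged replicate 1 and 1 in Aged + LRP1high replicate 2, and 0 in the other 7 granulosa cell libraries. The part of these cells in the levels of the 9 genes was not tested.

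**Figure D3:**
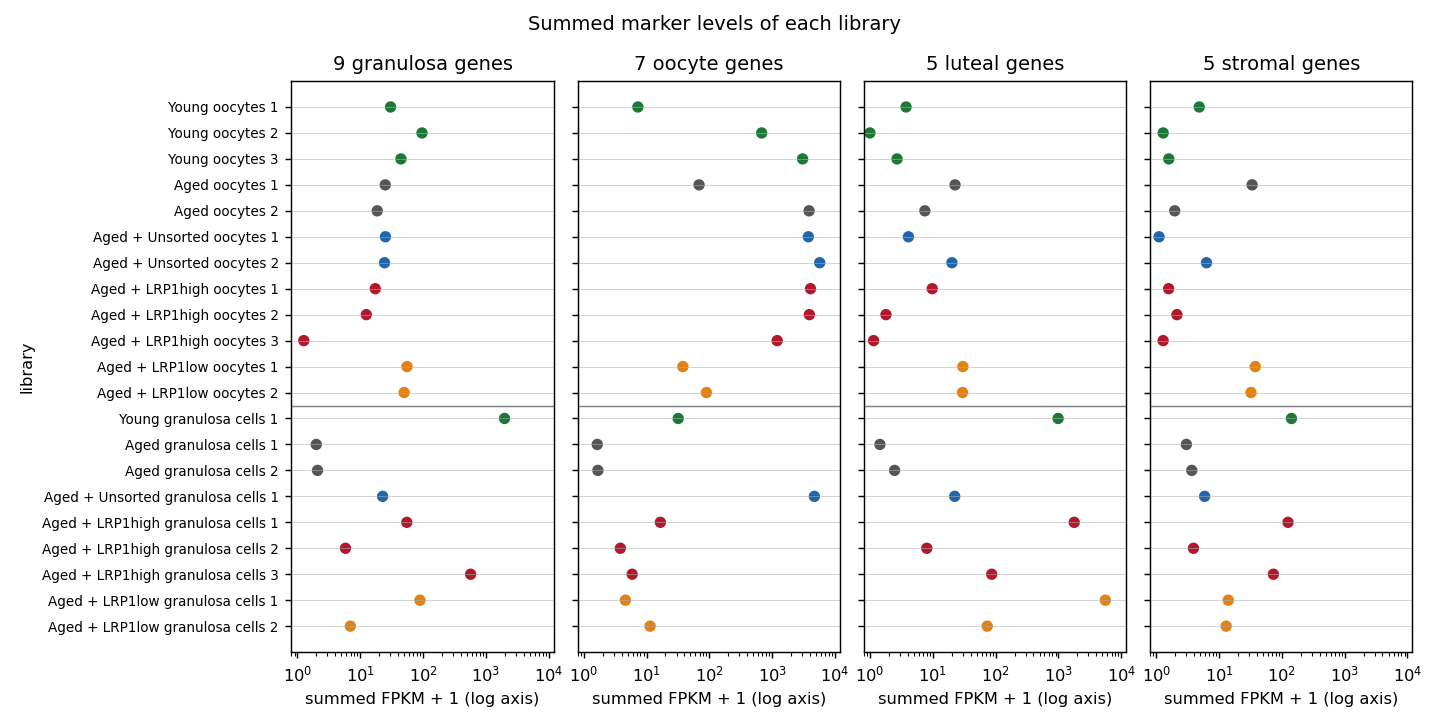
Points give the summed FPKM + 1 (log axis) of the 9 granulosa genes and of oocyte, luteal and stromal marker genes in each library, coloured by mouse group, with oocyte libraries above the grey line. Aged + Unsorted granulosa cells lie among the oocyte libraries in the oocyte panel, and Aged + LRP1low granulosa cells 1 is highest for luteal genes, at 5582.

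Aged + LRP1high and Aged granulosa cells were compared on log2(FPKM + 1) with limma over 13002 genes, with Benjamini-Hochberg adjustment. Calls required more than a 1.5-fold change together with an adjusted p under 0.05. This scale understates the change of low genes. None of the 8 members tested was called, and 0% of all genes were called. At an unadjusted p under 0.05, with the 1.5-fold change still required here and below, 1 member (Nr5a2) passed, against 8.51% of all genes. All 8 differences were above 0, with a median of 2.24, but 92.8% of all genes were also above 0, with a median of 0.89. Inhbb differed by 4.46 (standard error 1.84, limma adjusted p = 0.458, 95% interval −0.06 to 8.98), Foxl2 by 2.58 (standard error 1.17, adjusted p = 0.458), and Nr5a2 by 1.27 (standard error 0.45, adjusted p = 0.458). For 5 of the 8 (Foxl2, Inha, Inhba, Inhbb and Nr5a2) every Aged + LRP1high library lay above both Aged libraries, which was so for 50.4% of all genes. A count of 5 of 8 stands near this background. Without Aged + LRP1high replicate 3 the difference was 0.56 in place of 3.05 for Inha, 0.53 in place of 1.89 for Fshr, 3.18 for Inhbb and −0.29 in place of 1.10 for Hsd17b1, so replicate 3 decided the size of the first 2 and the direction of the last.

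Aged + LRP1low and Aged granulosa cells differed less in the median of the members. None of the 8 was called (0% of all genes called by limma), and 0 passed at an unadjusted p under 0.05, against 3.79% of all genes. Of the 8, 6 lay above 0 (5 under quantile normalization and 7 on TPM without the repeat-like genes), with a median of 0.53 beside 0.31 over all genes. Of all genes, 70.1% lay above 0. Inhbb differed by 3.04 (standard error 2.01, limma adjusted p = 0.904) and Inhba by 2.59 (standard error 2.16, adjusted p = 0.935). These 2 were the members with both Aged + LRP1low libraries above both Aged libraries, against 30.5% of all genes. Inhbb differed by 1.19 without Aged + LRP1low replicate 1, the library with the highest luteal sum, and by 4.89 without replicate 2. The comparison shares its Aged libraries with the one above.

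Between the transplanted groups, all 8 members were higher in Aged + LRP1high than in Aged + LRP1low granulosa cells on average, by 0.59 (Inhba) to 1.91 (Fshr), with a median of 1.28 beside 0.45 over all genes. Of all genes, 70.2% were also higher. None was called by limma (0% of all genes), and 0 passed at an unadjusted p under 0.05, against 5.15% of all genes. Nr5a2 was the member with no overlap of the groups, as were 21.7% of all genes, and differed by 0.99 (standard error 0.45, limma adjusted p = 0.629, 95% interval −0.11 to 2.09). The difference of Fshr had a 95% interval of −1.40 to 5.22, so neither equality nor a large difference could be told at this number of libraries. Without Aged + LRP1low replicate 1, Nr5a2 differed by 0.62. The directions of the 3 subunits rested on single libraries: Inha differed by 0.67 with all libraries, by −1.82 without Aged + LRP1high replicate 3 and by −1.71 without Aged + LRP1low replicate 2, Inhba differed by −0.87 without Aged + LRP1high replicate 3 and by −1.43 without Aged + LRP1low replicate 2, and Inhbb by 1.43 with all libraries and −0.42 without Aged + LRP1low replicate 2.

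**Figure D4:**
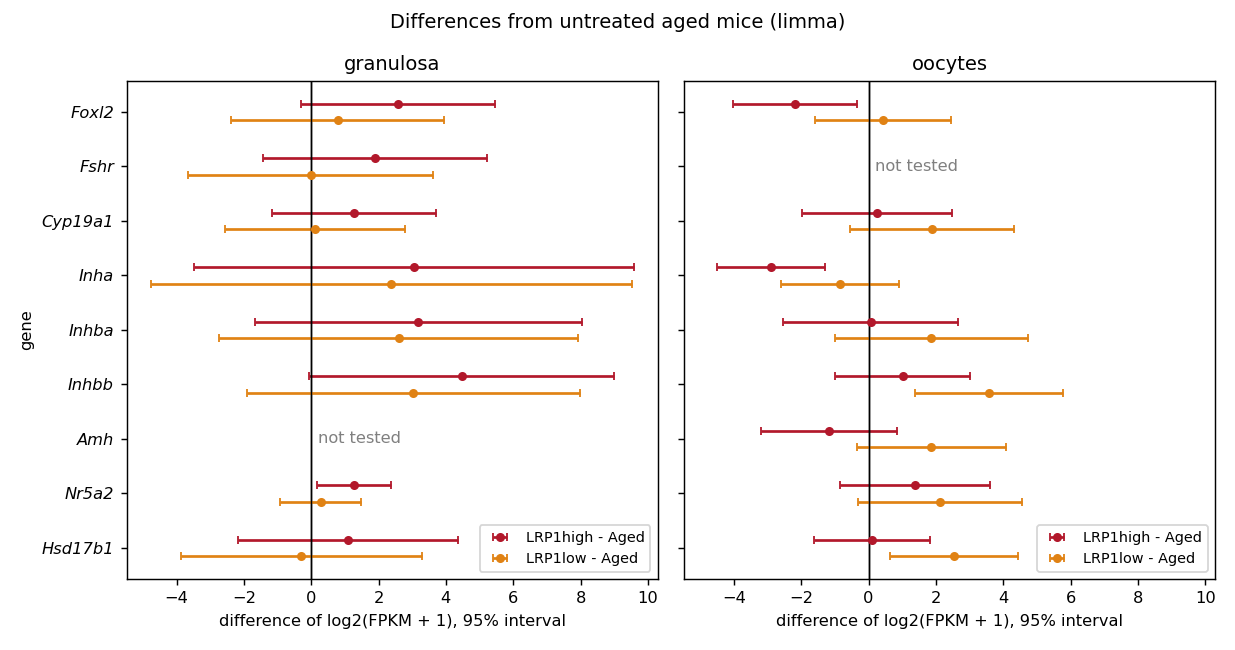
Points are limma differences of log2(FPKM + 1) between Aged + LRP1high (red) or Aged + LRP1low (orange) and Aged, with 95% intervals, in granulosa cells (left) and oocytes (right). In granulosa cells all intervals but that of Nr5a2 in Aged + LRP1high (0.17 to 2.37) include 0, while in oocytes those of Foxl2 and Inha lie below 0 in Aged + LRP1high and those of Inhbb and Hsd17b1 above 0 in Aged + LRP1low.

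Genes around the members in the same pathways gave similar counts. Of 10 genes of activin, inhibin and Amh signalling (Acvr1b, Acvr1c, Acvr2a, Acvr2b, Amhr2, Bmpr1a, Tgfbr3, Fst, Fstl3 and Smad3), 8 were tested in granulosa cells, and 0 were called higher and 0 lower by limma in any of the 3 comparisons. In Aged + LRP1high against Aged their median difference was 0.94, close to the 0.89 of all genes. Fst, which encodes the activin antagonist follistatin, had an FPKM of 349 in Young, 0.145 and 0.236 in the Aged libraries, 1.69 in Aged + Unsorted, 1.05, 0.445 and 247 in Aged + LRP1high, and 102 and 0.666 in Aged + LRP1low. It was high in the 3 libraries with the highest Inha. Bmpr1a, a type I receptor for bone morphogenetic proteins and Amh, was instead highest in Aged + LRP1high replicate 1, at 47.4, with 8.18 in Young and 0.987 in Aged + LRP1high replicate 3.

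Of 14 genes of FSH signal transduction and granulosa transcription (Prkaca, Prkar1a, Prkar2b, Creb1, Igf1, Igf1r, Ccnd2, Lhcgr, Nr5a1, Gata4, Gata6, Esr2, Foxo1 and Wt1), 13 were tested in granulosa cells, with 0 called higher and 0 lower by limma. All 13 lay above 0 in Aged + LRP1high against Aged, with a median of 1.47, beside 92.8% of all genes and a median of 0.89. In Aged + LRP1low against Aged 11 of 13 did, with a median of 0.42, beside 70.1% of all genes and a median of 0.31, so both counts stand near their background. Prkar2b, a regulatory subunit of protein kinase A, had an FPKM of 394 in Young, 0 and 0 in the Aged libraries, 7.35 in Aged + Unsorted, 3.48, 0.638 and 42.1 in Aged + LRP1high, and 12.7 and 0.590 in Aged + LRP1low. Lhcgr, the receptor for luteinizing hormone, was highest in Aged + LRP1low replicate 1, at 78.8, followed by Young at 42.2 and Aged + LRP1high replicate 1 at 5.80. An FPKM of at least 10 was reached by 12 of the 14 genes in Young, 1, 0 and 6 in Aged + LRP1high replicates 1 to 3, 4 in Aged + Unsorted, 3 and 1 in Aged + LRP1low, and 0 in either Aged library.

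Among 2255 genes whose FPKM averaged 10 or more in the 9 granulosa cell libraries, the profiles most like that of Foxl2 were those of Mogs, Wt1 and Ldha, with a mean absolute difference of the centred log2(FPKM + 1) of 0.40, 0.46 and 0.48. For Fshr they were Zfp385b, Wt1 and Dhrs7, at 0.31, 0.35 and 0.40. Wt1, a transcription factor of the gonadal somatic lineage, stood near both. Its granulosa FPKM was 66.5 in Young, 29.6 in Aged + LRP1high replicate 3 and at most 1.26 in the other granulosa cell libraries. The likeness rests mainly on those 2 libraries.

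Against oocytes, the Young granulosa cell library held more of 8 of 9 members than any of the 3 Young oocyte libraries, as it did for 27.5% of 21767 genes. Its level was 33.1 times the highest Young oocyte level for Inha, 28.9 times for Inhbb, 17.6 times for Hsd17b1, 10.6 times for Nr5a2, 9.62 times for Foxl2, 8.92 times for Inhba and 3.73 times for Cyp19a1, and for Fshr it was 23.2 against at most 0.383. Amh was listed at 0 in Young granulosa cells and at 5.82, 0 and 0.288 in Young oocytes. All granulosa cell libraries lay above all oocyte libraries for 3 of 9 members in Aged + LRP1high (20.1% of all genes), 1 in Aged + Unsorted (36.9%), 1 in Aged (2.62%) and 0 in Aged + LRP1low (0.914%). They lay below all oocyte libraries for 2 members in Aged, Foxl2 and Inha (38.3% of all genes), for 6 in Aged + LRP1low (78.1%), and for 0 in Young (3.51%), Aged + Unsorted (12.7%) and Aged + LRP1high (11.4%). In Young, 8 of 9 members were thus higher in granulosa cells, against 27.5% of all genes. In Aged + LRP1low, whose 2 oocyte libraries were poor in oocyte genes, the count of 6 of 9 lower stands near the 78.1% of all genes.

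Averaged over the 5 mouse groups, the difference between granulosa cells and oocytes was above 0 for 8 of 9 members (6 of 9 on TPM), with a median of 0.80 beside −0.62 over 21767 genes. None of the 9 was called by limma, while 3% of all genes were, and 3 members passed at an unadjusted p under 0.05, against 21.4% of all genes. Inhba differed by 2.08 (standard error 0.78, limma adjusted p = 0.149), Inhbb by 1.70 (standard error 0.69, adjusted p = 0.175) and Amh by −0.91 (standard error 0.43, adjusted p = 0.233). Without the Aged + Unsorted granulosa cell library, which was rich in oocyte genes, Inhba differed by 2.72 and was called (adjusted p = 0.0462), and without the Young granulosa cell library it differed by 1.08. Foxl2 differed by 0.54 (standard error 0.52, limma adjusted p = 0.484), and by −0.48 without the Young granulosa cell library. Without all 5 libraries that went against their label, an exclusion chosen after seeing the data that leaves 3 mouse groups, Foxl2 was called, at 2.20 (standard error 0.69, adjusted p = 0.0469), and Inhba differed by 2.91 (adjusted p = 0.105).

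In oocyte libraries 8 of 9 members stayed below their highest granulosa level, and Amh reached 7.73 against 1.28. The summed FPKM of the 9 members had a median of 24.0 over the 12 oocyte libraries, against 21.6 over the 9 granulosa cell libraries. It was 29.3, 94.9 and 43.3 in Young, 23.9 and 17.6 in the Aged libraries, 24.1 and 23.3 in Aged + Unsorted, 16.3, 11.4 and 0.259 in Aged + LRP1high, and 54.4 and 48.8 in Aged + LRP1low. In this sum Aged + LRP1high lay below all other oocyte groups, with 16.3 against 17.6 at the closest, and Aged + LRP1low above all but Young replicate 2. The sum does not stand for each member. Between Aged + LRP1high and Aged oocytes, 5 of 8 members tested differed by more than 0 and 3 by less. Their median was 0.08, beside −1.05 over all genes. In Aged + LRP1low oocytes all 9 members had an FPKM of at least 1, as did 47920 and 38934 of all 55335 gene identifiers.

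For Aged against Young oocytes, 28004 genes were tested, among them 8 members (Fshr had too low a mean). Inhbb had an FPKM of 5.78, 18.3 and 7.81 in Young and Inhba had 0.470, 50.5 and 2.86, while both genes were listed at 0 in each Aged library. The 2 beta subunits were lower in every Aged library than in every Young one, against 0.646% of all genes. None of the 8 members was called by limma, where 0.0964% of all genes were, and the same 2 passed at an unadjusted p under 0.05, against 8.65% of all genes. Inhbb differed by −3.39 (standard error 0.92, limma adjusted p = 0.145) and Inhba by −2.73 (standard error 1.18, adjusted p = 0.515). The median of the members was −0.68, while that of all genes was 0.94. Without Young replicate 2 Inhba differed by −1.25. Aligned sequence was 0.578 and 0.791 gigabases in Aged and 1.35 to 3.40 in Young oocytes, and the part of depth in these zeros was not tested. Young replicate 1 and Aged replicate 1 were both poor in oocyte genes. Without Young replicate 1 the differences were −3.70 for Inhbb and −3.82 for Inhba.

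After transplantation of unsorted cells, Nr5a2 had an FPKM of 7.74 and 9.13 in oocytes, against 0.766 and 0 in Aged. It differed by 2.82 (standard error 1.11, limma adjusted p = 0.408). None of the 8 members was called, as 0% of all genes were, and 1 passed at an unadjusted p under 0.05, against 8.74% of all genes. Inhba, Inhbb and Nr5a2 lay above both Aged libraries in both Aged + Unsorted libraries (10.3% of all genes), and Inha lay below (11.3% of all genes).

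In Aged + LRP1high oocytes, Inha had an FPKM of 0.798, 1.34 and 0, against 10.5 and 11.7 in Aged, and Foxl2 had 0.0134, 0.185 and 0.0254, against 7.37 and 1.82. Every Aged + LRP1high library lay below both Aged libraries for these 2 members, as it did for 12.4% of all genes. Inha differed by −2.91 (standard error 0.73, limma adjusted p = 0.0857) and Foxl2 by −2.18 (standard error 0.83, adjusted p = 0.311). None of the 8 members was called, against 0.771% of all genes, and 2 passed at an unadjusted p under 0.05, against 10.9%. The median was 0.08 for the members and −1.05 for all genes. Without Aged replicate 2 both were called, Inha at −2.83 (adjusted p = 0.0250) and Foxl2 at −2.96 (adjusted p = 0.0329). Without Aged replicate 1, which was poor in oocyte genes, Inha differed by −2.98 (adjusted p = 0.119) and Foxl2 by −1.40 (adjusted p = 0.916).

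In Aged + LRP1low oocytes, Inhbb had an FPKM of 9.53 and 12.5 and Hsd17b1 of 5.74 and 3.96, and both were listed at 0 in both Aged libraries. Amh, at 7.73 and 6.66, was also above Aged, at 0 and 4.03. In all, 6 of 8 members lay above both Aged libraries (27.1% of all genes), and Inha lay below (9.55% of all genes). None was called by limma, against 3.17% of all genes, and 2 passed at an unadjusted p under 0.05, against 14.1%. Inhbb differed by 3.57 (standard error 1.00, limma adjusted p = 0.0846) and Hsd17b1 by 2.53 (standard error 0.86, adjusted p = 0.165). The median was 1.88 for the members and 0.68 for all genes. Markers of other cells were also high in these libraries: the summed FPKM was 36.7 and 31.3 for the 5 stromal, 43.2 and 23.3 for the 5 immune, and 29.1 and 28.7 for the 5 luteal genes, against 32.6, 42.7 and 21.6 in Aged replicate 1 and 0.974, 7.13 and 6.49 in Aged replicate 2. In the other 8 oocyte libraries these sums were at most 5.32, 6.73 and 19.2, and the part of these cells in the levels of the members was not tested. Both Aged + LRP1low libraries were poor in oocyte genes and the least deep, at 0.515 and 0.278 gigabases, so this comparison cannot be made without libraries that go against their label.

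The 2 cell types were set against each other for Aged + LRP1high and Aged. Foxl2 and Inha lay above Aged in every Aged + LRP1high granulosa cell library and below Aged in every Aged + LRP1high oocyte library, as did 7.33% of all genes, while 0 members and 0.0368% of all genes lay the other way round. The difference between the cell types was 4.76 for Foxl2 (standard error 1.42, limma adjusted p = 0.119) and 5.96 for Inha (standard error 2.38, adjusted p = 0.258). None of the 9 members was called, as 0% of all genes were, and these 2 passed at an unadjusted p under 0.05, against 16% of all genes. The median was 2.86 for the members and 1.68 for all genes. Without Aged oocytes replicate 2 the difference of Foxl2 was 5.55. This leaves 1 Aged oocyte library, replicate 1, which was poor in oocyte genes and had the higher Foxl2 FPKM (7.37 against 1.82). Without Aged + LRP1high granulosa cells replicate 3 the difference of Inha was 3.46.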

How the data were processed

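RNA of 12 oocyte and 9 granulosa cell libraries was analysed, and groups were taken from the labels. For each library the authors deposited coverage, FPKM and TPM per gene, made with HISAT2 2.2.1 and StringTie 1.3.3b per the submitters' processing notes. Deposited coverage gives the reads over an average base of a gene, deposited FPKM scales for gene length and library total, and deposited TPM adds up to one total for all libraries. The notes name the build mm9, while 54587 of 55335 identifiers have GRCm38 coordinates, so positions are given on GRCm38. The labels name a stranded kit and the paper Smart-seq2. Counting intervals were not given, since the values are not counts. Between 4 and 21 identifiers a file occurred more than once and were added up.

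Values were analysed as log2(FPKM + 1). Genes whose FPKM averaged 1 or more in the libraries fitted were tested with limma 3.58.1 in R 4.3.3, the groups of a cell type (or of both cell types) in 1 model, with Benjamini-Hochberg adjustment over all genes. Calls required more than a 1.5-fold change together with an adjusted p under 0.05. Counts at an unadjusted p under 0.05 also required more than a 1.5-fold change. The scripts were tested on simulated data with 200 changed genes. Depth was taken from coverage divided by FPKM (median of 21693 single-exon genes), and the FPKM of a read assumes 150 bases. Repeat-like genes have a TPM of 1000 or more and share 10% or more of their 20-base words with Gm10800. No replicates held identical values. Groups of 1 library entered no test of their own.

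The text names all 9 members, the 2 genes of each pathway list with the highest mean FPKM in granulosa cells and any that passed, and for Foxl2 and Fshr the 3 most alike genes. Eef1a1, Actb and single luteal genes were named after their values were seen. A further gene of the second pathway list is not reported here. The members and lists were chosen with earlier results of these data known. Alternatives were TPM, quantile normalization, a pseudocount of 0.1, no filter, another variance model, unadjusted p, a replicate block, leaving out each library, and 2 added after seeing the data (TPM without repeat-like genes, and libraries that go against their label left out).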

Additional observations from a re-analysis of the deposited data

Results flagged for a closer look

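Between Aged + LRP1high and Aged, every library went one way in granulosa cells and the other way in oocytes for 2 of 9 members, Foxl2 and Inha, which were higher in granulosa cells and lower in oocytes, as were 7.33% of 21767 genes. The difference between the cell types on the log2(FPKM + 1) scale was 4.76 for Foxl2 and 5.96 for Inha, and the limma test of that difference missed the threshold for both (adjusted p = 0.119 and 0.258). In granulosa cells Inha was listed at 0 in both Aged libraries, where Actb had an FPKM of 0.461 and 1.74, and Aged + LRP1high replicates 1 and 2 had an Inha FPKM of 0.555 and 0.390. The part of these low libraries in the pattern was not tested.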

How the results depend on the processing

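No member was called in any of the 9 comparisons. At an unadjusted p under 0.05, the number of members called was 1 for Aged + LRP1high against Aged in granulosa cells, 2 for Aged against Young, 1 for Aged + Unsorted, 2 for Aged + LRP1high and 2 for Aged + LRP1low against Aged in oocytes, 3 between cell types and 2 for the difference between cell types. Without a filter on low values it was 1 (Inha) for Aged + LRP1high and 2 (Inhbb and Hsd17b1) for Aged + LRP1low oocytes against Aged, and on TPM without repeat-like genes, added after seeing the data, the latter was also 2. When 1 library at a time was left out, the number called was 0 to 2 for Aged + LRP1high against Aged oocytes (2 without Aged oocytes replicate 2), 0 to 1 between cell types (1 without Aged + Unsorted granulosa cells), 0 to 1 for the difference between cell types (1 without Aged oocytes replicate 2), and 0 in the other 6 comparisons. Without the 5 libraries that go against their label it was 1 between cell types. The number called was 0 under TPM, quantile normalization, a pseudocount of 0.1 and another variance model. Of the 26 member differences followed through the alternatives, 21 kept their direction in all of them. When 1 library was left out, Hsd17b1 in Aged + LRP1high against Aged granulosa cells ranged from −0.29 to 1.79, Inha, Inhba and Inhbb in Aged + LRP1high against Aged + LRP1low granulosa cells from −1.82 to 3.05, from −1.43 to 2.61 and from −0.42 to 3.28, and Foxl2 between cell types from −0.48 to 0.82, and none of these was called. Where a group was left with 1 library, its spread was taken to be that of the other groups. Without Aged oocytes replicate 2, the Aged oocyte library left was replicate 1, which was poor in oocyte genes. Quantile normalization moved the median of all genes in Aged + LRP1high against Aged from 0.89 to 0.05 in granulosa cells and from −1.05 to 0.04 in oocytes. With the replicate number as a block, 0 members were called, and Hsd17b1 in Aged + LRP1high against Aged (−0.29) and Inha (−1.82) and Inhba (−0.87) in Aged + LRP1high against Aged + LRP1low granulosa cells turned. In the latter comparison 5 of 8 members were then above 0 and 2 below, and the median of the members was 0.15 in place of 1.28, beside 0.39 over all genes. Between cell types 6 of 9 were then above 0. Among granulosa cell libraries only Aged + LRP1high has a replicate 3, so the block took up that library. The values of Hsd17b1, Inha and Inhba with the block are thus those without that library and are no separate evidence. The cause of the lower count between cell types was not tested. Deviations of same-numbered libraries had correlations of −0.0761 to 0.256 in 6 granulosa pairs and −0.436 to 0.441 in 21 oocyte pairs. Pairs of unlike number had −0.256 to 0.255 and −0.520 to 0.520. In groups of 2 libraries the deviations mirror each other, so this check cannot tell whether the numbers pair the samples. With 1 to 3 libraries a group and a shallow depth, differences of the size seen in single libraries could not be told from the spread.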
